A study of Mus musculus with 6 samples.

Results

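The 34 genes described here make, regulate or export cholesterol and fatty acids, and were read in cartilage cells of the mouse knee before birth and in the young adult. They were listed by symbol for their textbook roles: 19 enzymes of sterol synthesis, 5 regulators of the sterol regulatory element binding proteins (SREBPs), 5 enzymes of fatty acid synthesis, and 5 genes that are liver X receptors (LXRs) or their classical targets. All 34 were found among the 22032 genes of the table, and all 34 had a mean of at least 1 TPM (transcripts of a gene after scaling each sample to a total of 1000000), which 13125 genes had. RNA-seq covered 3 embryonic samples and 3 adult samples. The embryonic stage is E16.5 in the study's text, while the labels give 16.5 as a number of weeks. The adult animals were 2 months old and, by the methods, male B6 mice. No allele, treatment or other agent is given for either group. Strain and sex are not stated for the embryos. Sex-linked RNA, described below, was not the same across the embryonic samples, so sex was not matched between stages. Both stages went through the same sort, for cells that carried the bone morphogenetic protein receptor BMPR1B and lacked CD31, CD45, Ter119 and alkaline phosphatase. The methods call replicates biological, and how many animals made up a sample is not given.

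Cells make cholesterol from acetyl-CoA through mevalonate and squalene, and the SREBP factors Srebf1 and Srebf2 switch on most enzymes of that path when the membrane of the endoplasmic reticulum runs low in sterol. Scap escorts the SREBPs to the Golgi, where they are cut and freed, and Insig1 and Insig2 hold Scap back when sterol is plentiful. LXRs work in the opposite direction: they sense oxysterols, raise the exporters Abca1 and Abcg1 and the lipid carrier Apoe, and also raise Srebf1. Cartilage has no blood vessels, and its cells take lipid from the surrounding fluid or make it.

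Chondrocyte markers were high at both stages as a sum, but not each marker was high in adult cells. Matn3 read 181.4 to 233.8 TPM in embryonic and 1.11 to 3.65 TPM in adult samples. Col9a1 read 1913 to 1946 TPM and then 27.2 to 64.25 TPM. The chondrocyte genes Col2a1 and Col11a1 were among the highest markers at both stages, and 12 chondrocyte markers summed to 29900 to 31560 TPM in embryonic samples and 10460 to 13620 TPM in adult samples, with 9 lower and 2 higher in adult cells. Bmpr1b, the gene of the sorted receptor, read 16.4 to 20.3 TPM in embryonic and 4.51 to 18.5 TPM in adult samples. Alpl, a gene of the phosphatase that the sort selected against, read 14.4 to 17.9 TPM in embryonic and 32.7 to 38.6 TPM in adult samples. Embryonic replicate 1 stood apart in sex-linked genes, with Xist at 206.6 TPM and Ddx3y at 0.138 TPM, whereas embryonic replicate 2 had 0.016 and 111 TPM and embryonic replicate 3 had both, 78.5 and 68.6 TPM. The adult samples had Xist at 0 to 0.303 TPM and Ddx3y at 54.9 to 81.1 TPM. Embryonic replicate 1 also held more RNA of erythroid genes, 257 TPM over 8 markers against 7.77 and 8.36 TPM in its fellow samples and 12.4 to 47.5 TPM in adult samples.

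The clearest change of lipid genes was a lower level of sterol synthesis enzymes in adult cells and a higher level of LXRs and Apoe. Of the 34 genes, 13 were lower in adult cells, 7 were higher and 14 did not pass (limma with Benjamini-Hochberg adjustment over all genes tested, threshold 0.05). Over all 13125 genes, 45.3% passed that test, 21.4% lower and 23.9% higher in adult cells. That balance turned with the scaling: 3140 genes were higher and 2809 lower as deposited, 2613 and 3234 under median-of-ratios scaling, and 2792 and 2830 under quantile normalization. Ranges of the 3 samples did not overlap for 16 genes with the adult samples below and 9 with the adult samples above, where 25.9% and 30.7% of all genes tested did so, 56.5% together. The median log2 fold change, always adult minus embryonic here, was -0.44 over the 34 genes and 0.16 over all genes. Fold changes are on the log2(TPM + 1) scale, which understates the change of genes near 1 TPM.

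**Figure D1:**
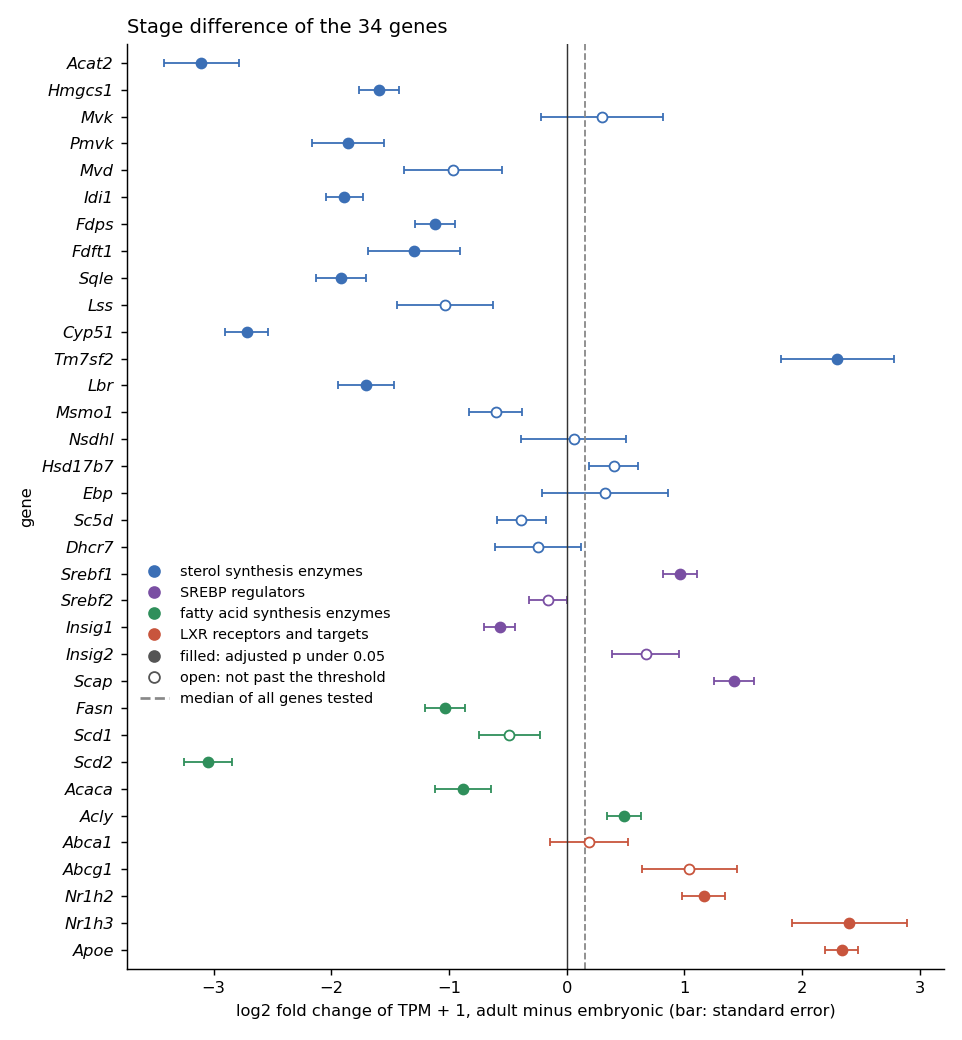
Log2 fold change of TPM + 1 (adult minus embryonic) for each of the 34 genes, with its standard error as a bar and the color giving the group of genes. Filled points passed an adjusted p of 0.05. Most enzymes of sterol synthesis lie left of zero, with Tm7sf2 at 2.30 as the exception that passed, and the LXR genes lie right of zero.

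Sterol enzymes fell as a group of transcripts, summed and by their middle. The 19 enzymes together held 1843, 1942 and 1862 TPM in the embryonic samples and 685, 822 and 865 TPM in the adult samples, so that no adult sample reached an embryonic one. Their median log2(TPM + 1) per sample was 5.44, 5.44 and 5.37 in embryonic and 4.86, 4.79 and 5.14 in adult samples. Of the 19 enzymes, 9 were lower, 1 was higher and 9 did not pass, and the median log2 fold change was -1.04. Over all genes tested, 21.4% were lower and 23.9% higher, 45.3% together. Since these are bulk samples, fewer cells of a type and less RNA per cell cannot be told apart.

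The entry into the pathway held the enzyme with the largest fall of the 34. Acat2 (chr17:12942890-12960747 in GRCm38, minus strand), which joins acetyl-CoA units in the cytosol, read 27.9, 39.7 and 40.3 TPM in the embryonic samples and 4.29, 2.38 and 3.28 TPM in the adult samples. The stages did not overlap, and the log2 fold change was -3.11 (SE 0.32, limma adjusted p = 0.000114). Of the 50-base words of its longest transcript, 45.9% also occur in Acat3, a near copy listed at 0 to 8.22 TPM, so some reads of Acat2 could belong to that copy. Hmgcs1, the synthase that makes HMG-CoA, had 133.8, 128.9 and 131.6 TPM before birth and 50.6, 44.8 and 34.7 TPM in the adult. Its embryonic values lay within a few TPM of each other, and its log2 fold change was -1.59 (SE 0.17, limma adjusted p = 0.000137).

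The kinases that follow split. Mvk, which phosphorylates mevalonate, had 4.19 to 10.7 TPM in embryonic and 3.67 to 13.2 TPM in adult samples, and its log2 fold change of 0.30 (SE 0.52, limma adjusted p = 0.655) was smaller than its error. Pmvk, the next kinase, was lower in adult cells, from 45.1, 47.0 and 46.8 TPM to 16.5, 7.12 and 14.7 TPM (log2 fold change -1.86, SE 0.31, limma adjusted p = 0.00148). Mvd, which removes the carboxyl group, had 11.2 to 12.6 TPM in embryonic and 2.89, 5.93 and 9.78 TPM in adult samples. Its ranges did not overlap, but it did not pass (log2 fold change -0.97, SE 0.42, limma adjusted p = 0.0900), and it passed only without adult replicate 1, its highest adult sample (-1.32, limma adjusted p = 0.0350).

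The steps from isoprene units to squalene were lower in adult cells. Idi1, the isomerase of isopentenyl diphosphate, fell from 145.6, 192.0 and 174.5 TPM to 41.9, 49.9 and 43.6 TPM (log2 fold change -1.89, SE 0.16, limma adjusted p = 3.76e-05). Fdps, which builds farnesyl diphosphate, had 190.3, 133.4 and 185 TPM in embryonic and 76.9, 83.1 and 70.6 TPM in adult samples (log2 fold change -1.12, SE 0.17, limma adjusted p = 0.000931). Most of its sequence is also annotated under other genes: 86.4% of its 50-base words occur in another annotated gene, mostly Gm43738. Where those genes lie was not examined. Fdft1, the squalene synthase, was the 1 called member whose stages overlapped. It had 56.0, 85.4 and 70.2 TPM in embryonic samples and 17.3, 21.7 and 56.1 TPM in adult samples (log2 fold change -1.30, SE 0.39, limma adjusted p = 0.0254). Its call was lost without embryonic replicate 2 (limma adjusted p = 0.101), embryonic replicate 3 (0.0772), adult replicate 1 (0.0883) or adult replicate 2 (0.0809). Along 18.3% of its exonic bases Fdft1 lies opposite Ctsb, a lysosomal protease gene, which was also highest in adult replicate 3 (214 TPM, against 104 to 131 TPM elsewhere). Whether the counting used strand is not stated, and the part of Ctsb reads in the Fdft1 values was not tested.

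The oxygen-requiring steps included the enzyme with the most even embryonic values. Sqle, the squalene epoxidase and a control point of the path, fell from 131.6, 142.6 and 124.5 TPM to 31.6, 27.1 and 47.4 TPM (log2 fold change -1.92, SE 0.21, limma adjusted p = 0.000169). Lss, which closes the rings to lanosterol, had 8.26 to 12.5 TPM in embryonic and 2.34 to 5.97 TPM in adult samples with no overlap, and missed the threshold (log2 fold change -1.04, SE 0.41, limma adjusted p = 0.0682). Cyp51 (chr5:4081145-4104746, minus strand), the demethylase of lanosterol, read 449.9, 454.2 and 446.1 TPM in embryonic samples and 56.2, 90.9 and 59.9 TPM in adult samples. It was the second most abundant of the 19 enzymes by its mean over all samples, and its log2 fold change was -2.72 (SE 0.18, limma adjusted p = 1.17e-05).

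The reductase step after Cyp51 can be run by Tm7sf2 or by Lbr, and these moved apart. Lbr, which is also a receptor of the inner nuclear membrane for lamin and chromatin, had 109.2, 122.4 and 128.1 TPM in embryonic and 33.1, 26.6 and 52.6 TPM in adult samples (log2 fold change -1.71, SE 0.24, limma adjusted p = 0.000604). Tm7sf2, the dedicated reductase, rose from 1.90, 1.48 and 0.736 TPM to 7.13, 8.15 and 19.1 TPM (log2 fold change 2.30, SE 0.48, limma adjusted p = 0.00477). Tm7sf2 was the sterol enzyme that passed in the upward direction. Of the summed TPM of both genes, it made up 1.71%, 1.19% and 0.571% in embryonic and 17.7%, 23.4% and 26.6% in adult samples. Lbr stayed the more abundant of the pair in all 6 samples.

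The late enzymes among the members, from Msmo1 to Dhcr7, did not pass in either direction. Msmo1, the methyl sterol oxidase, with the highest mean of the 19 over all 6 samples although below Cyp51 in each embryonic one, had 412, 442 and 373 TPM in embryonic and 179.8, 317 and 339 TPM in adult samples (log2 fold change -0.60, SE 0.23, limma adjusted p = 0.0568), and it passed without adult replicate 3 (limma adjusted p = 0.0354) and under median-of-ratios scaling (0.0252). Hsd17b7, a ketosteroid reductase, was at 21.97 to 31.3 TPM and then 33.4 to 35.5 TPM, all adult samples being above, and missed the threshold (log2 fold change 0.40, SE 0.21, limma adjusted p = 0.144). Sc5d, a desaturase, had log2 fold change -0.39 (SE 0.21, limma adjusted p = 0.158), and it passed without adult replicate 3 (limma adjusted p = 0.0460).

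The X-linked enzymes and the last reductase varied more between adult samples than between stages. Ebp, the sterol isomerase on the X chromosome, ran from 16.2 to 33.8 TPM in embryonic samples and read 58.7, 40.8 and 11.5 TPM in adult samples. Its log2 fold change was 0.33 (SE 0.54, limma adjusted p = 0.642), -0.14 without adult replicate 1 and 0.99 without adult replicate 3, where it passed (limma adjusted p = 0.0488). Nsdhl, the other X-linked enzyme, had 5.13, 9.57 and 6.89 TPM in embryonic and 4.23, 7.06 and 12.8 TPM in adult samples. Its log2 fold change of 0.06 (SE 0.45, limma adjusted p = 0.919) changed sign under quantile normalization (-0.12) and median-of-ratios scaling (-0.066). In embryonic replicate 1, the sample with high Xist, Ebp and Nsdhl read 25.4 and 5.13 TPM. Dhcr7, which makes cholesterol from its immediate precursor, had 14.1 to 21.3 TPM in embryonic and 7.89 to 18.4 TPM in adult samples (log2 fold change -0.24, SE 0.37, limma adjusted p = 0.616), and was 0.12 without adult replicate 3.

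**Figure D2:**
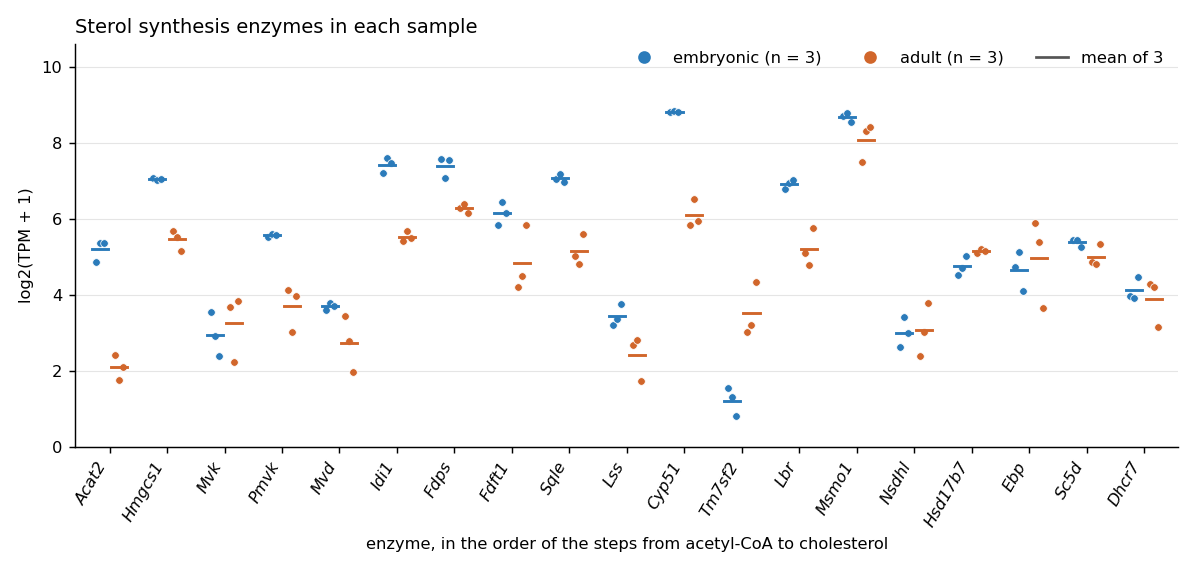
Level of the 19 sterol synthesis enzymes as log2(TPM + 1) in each sample, ordered by step, with 3 embryonic points, 3 adult points and a line at the mean of each stage. The embryonic points of Cyp51 lie on top of each other near 8.8, and the adult points of Acat2, Hmgcs1, Idi1, Sqle and Cyp51 lie below all embryonic ones.

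Set in the order of the pathway, the calls among the member enzymes lay in the earlier steps. Enzymes of the path that are not members were left out of this division, so it does not describe the whole path. From Acat2 to Lbr, 13 enzymes, 9 were lower, 1 was higher and 3 did not pass, with a median log2 fold change of -1.59. From Msmo1 to Dhcr7, 6 enzymes, none passed (by limma, with Benjamini-Hochberg adjustment) and the median was -0.09. The point of division was chosen after the values were seen, and the difference between the earlier and later steps was not tested. The earlier enzymes summed to 1321, 1375 and 1376 TPM in embryonic and 362.5, 377 and 420.4 TPM in adult samples. The later enzymes summed to 522, 567 and 486 TPM and to 322.5, 445 and 444 TPM, where Msmo1 held most of the sum. Exons of genes on the opposite strand overlapped 12.1% of the exonic bases of Hmgcs1, 9.24% of Lbr, 9.22% of Idi1, 3.76% of Cyp51 and 3.53% of Lss, and 21.3% of the 50-base words of Idi1 also occur in Gm13502.

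The regulators of SREBP changed in both directions, with 2 of 5 higher in adult cells, 1 lower and 2 that did not pass. Beside the 23.9% higher and 21.4% lower of all genes tested, counts among 5 genes say little about the group. Srebf1, the factor tied most to fatty acid genes, rose from 96.6, 110.2 and 98.2 TPM to 186.9, 232 and 181.4 TPM (log2 fold change 0.96, SE 0.14, limma adjusted p = 0.000832). Srebf2, the factor tied most to sterol genes, had 107.7, 96.9 and 108.2 TPM in embryonic and 77.5, 109.2 and 96.1 TPM in adult samples. Its stages overlapped, and its log2 fold change was -0.16 (SE 0.16, limma adjusted p = 0.454). Scap, the escort, rose from 23.5, 24.0 and 25.3 TPM to 60.1, 70.9 and 69.5 TPM (log2 fold change 1.42, SE 0.17, limma adjusted p = 0.000260), and exons on the opposite strand overlap 13.2% of its exonic bases. These are transcript levels, and the cut, active form of an SREBP is not seen by RNA-seq.

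The brakes on Scap differed from each other. Insig1, itself a target of SREBP, fell from 120.9, 105 and 107 TPM to 73.9, 74.2 and 74.7 TPM (log2 fold change -0.57, SE 0.13, limma adjusted p = 0.00814), and its adult samples were nearly equal. Insig2 had 39.5, 38.6 and 67.5 TPM in embryonic and 52.0, 88.9 and 92.3 TPM in adult samples with overlapping ranges (log2 fold change 0.67, SE 0.29, limma adjusted p = 0.0852). It passed without embryonic replicate 3 (limma adjusted p = 0.0380) or without adult replicate 1 (0.0293), the samples in which the stages met. Insig1 exceeded Insig2 in every embryonic sample and in adult replicate 1, and was the lower of the pair in the other adult samples.

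Of the 5 fatty acid synthesis enzymes, 3 were lower in adult cells, 1 was higher and 1 did not pass, with a median log2 fold change of -0.88. The shares over all genes tested were 21.4% lower and 23.9% higher, 45.3% together. Scd2, a stearoyl-CoA desaturase known from brain and early life, had the second largest fall of the 34 genes, from 141.3, 111.2 and 152.4 TPM to 18.4, 12.7 and 15.3 TPM (log2 fold change -3.05, SE 0.20, limma adjusted p = 1.17e-05). Scd1, a related desaturase in the same cluster on chromosome 19, had 25.2, 22.9 and 26.7 TPM in embryonic and 12.8, 22.03 and 18.8 TPM in adult samples (log2 fold change -0.49, SE 0.26, limma adjusted p = 0.158). Its ranges did not overlap, although by little. In GRCm38 Scd2 lies at chr19:44293674-44306864 on the plus strand and Scd1 at chr19:44394455-44407879 on the minus strand. Few 50-base words are shared with other genes, 4.01% for Scd2 and 4.66% for Scd1. Scd1 made up 15.1%, 17.1% and 14.9% of their summed TPM in embryonic and 41.0%, 63.5% and 55.1% in adult samples, while the sum itself went from 134 to 179 TPM down to 31.2 to 34.7 TPM.

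Upstream of the desaturases, calls went both ways. Fasn, the fatty acid synthase, fell from 82.6, 70.0 and 77.7 TPM to 33.2, 35.1 and 43.1 TPM (log2 fold change -1.03, SE 0.17, limma adjusted p = 0.00149). Acaca, the carboxylase that makes malonyl-CoA, fell from 29.6, 27.6 and 29.3 TPM to 18.6, 15.01 and 12.5 TPM (log2 fold change -0.88, SE 0.24, limma adjusted p = 0.0153), a call lost without embryonic replicate 1 (limma adjusted p = 0.0566) or embryonic replicate 3 (0.0539). Of its 50-base words, 52.6% also occur in Gm5182. Acly, which supplies cytosolic acetyl-CoA to both pathways, went the other way, from 121.2, 112.7 and 134.9 TPM to 175, 192.9 and 150.6 TPM (log2 fold change 0.49, SE 0.14, limma adjusted p = 0.0232). The rise of Acly was lost under median-of-ratios scaling (0.34, limma adjusted p = 0.0791), which left 3 lower and 0 higher in the group. Leaving out embryonic replicate 1, embryonic replicate 2, adult replicate 1 or adult replicate 2 also took its adjusted p above the threshold, at most to 0.0795, and without embryonic replicate 1 the group had 2 calls.

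LXR genes were higher in adult cells where they passed, 3 of 5, with none lower and a median log2 fold change of 1.16. Among all genes tested, 23.9% were higher and 21.4% lower, 45.3% together. Apoe (chr7:19696109-19699188, minus strand), a lipid carrier that many cells secrete, read 90.5, 103.2 and 90.6 TPM in embryonic and 541, 416 and 496 TPM in adult samples. Its log2 fold change of 2.34 (SE 0.14, limma adjusted p = 5.69e-06) had the smallest adjusted p of the 34 genes. Nr1h2, the gene of the broadly expressed LXR beta, rose from 91.2, 67.4 and 67.1 TPM to 147.1, 202.5 and 159.2 TPM (log2 fold change 1.16, SE 0.18, limma adjusted p = 0.00106). Nr1h3, the gene of LXR alpha, rose from 1.70, 1.79 and 0.112 TPM to 12.1, 7.37 and 10.3 TPM (log2 fold change 2.40, SE 0.49, limma adjusted p = 0.00433). Nr1h2 had the higher level of the receptors in all 6 samples.

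The exporters did not pass. Abcg1, which moves cholesterol to lipoprotein particles, had 2.69, 3.44 and 3.28 TPM in embryonic and 5.26, 11.2 and 7.06 TPM in adult samples with no overlap (log2 fold change 1.04, SE 0.40, limma adjusted p = 0.0615). It passed without adult replicate 1, its lowest adult sample (1.26, limma adjusted p = 0.0456). Abca1, which loads apolipoprotein with cholesterol, stayed between 6.42 and 9.61 TPM in embryonic and 7.58 and 10.8 TPM in adult samples (log2 fold change 0.19, SE 0.33, limma adjusted p = 0.657), and was -0.013 under quantile normalization. With Apoe, the 5 LXR genes summed to 167.5 to 195.7 TPM in embryonic and 645 to 716 TPM in adult samples, and Apoe held most of the adult sum.

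**Figure D3:**
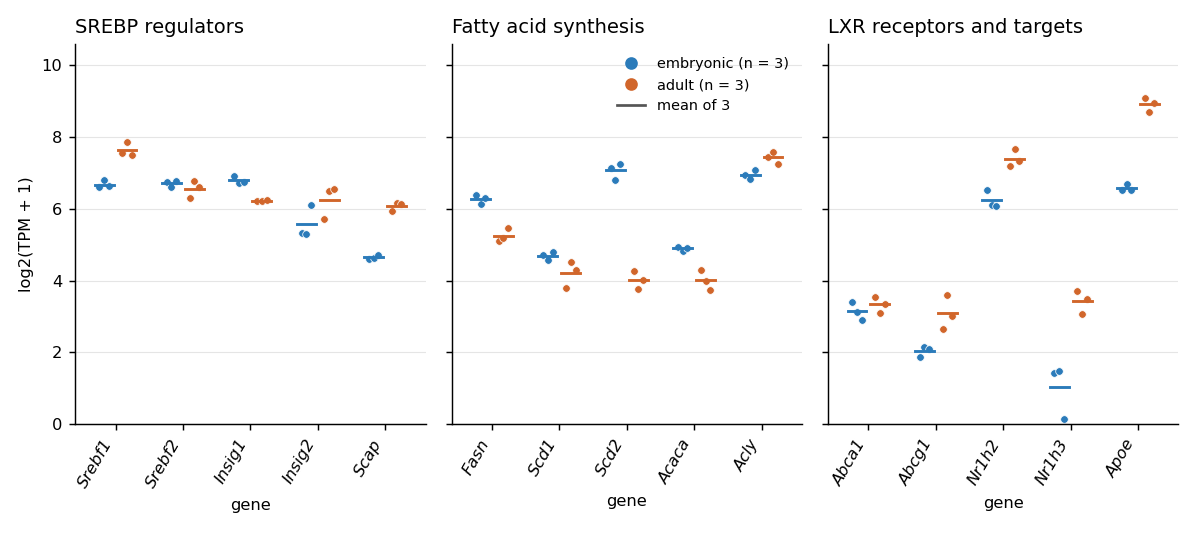
Level of the SREBP regulators, fatty acid synthesis enzymes and LXR genes as log2(TPM + 1) in each sample, with 3 embryonic and 3 adult points and a line at each mean. Scd2 drops from about 7 to about 4 while Scd1 differs by 0.49, and the adult points of Apoe lie between 8.7 and 9.1, above the embryonic ones at 6.5 to 6.7.

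Levels of related genes were also set against each other within each sample, in 6 pairs. A difference in log2(TPM + 1) moves little with the scaling of a sample where both genes are well above 1 TPM, but understates the ratio where 1 of them is near or below it, as Tm7sf2 and Nr1h3 were in the embryonic samples. The difference in log2(TPM + 1) of Tm7sf2 minus Lbr was -5.25, -5.64 and -6.22 in embryonic and -2.07, -1.59 and -1.42 in adult samples, a shift of 4.01. Scd1 minus Scd2 went from -2.44, -2.23 and -2.47 to -0.49, 0.75 and 0.28, a shift of 2.56. Srebf1 minus Srebf2 went from -0.16, 0.18 and -0.14 to 1.26, 1.08 and 0.91, a shift of 1.12. In all of these no adult sample overlapped an embryonic one. Insig1 minus Insig2 shifted by -1.24 and Nr1h3 minus Nr1h2 by 1.24, again without overlap. With 3 samples against 3, the exact two-sided permutation test cannot give less than 0.1, which each of these 5 pairs reached (adjusted p = 0.12 over the 6 pairs). Abca1 minus Abcg1 shifted by -0.85, with overlapping stages (exact permutation p = 0.2, adjusted p = 0.2).

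**Figure D4:**
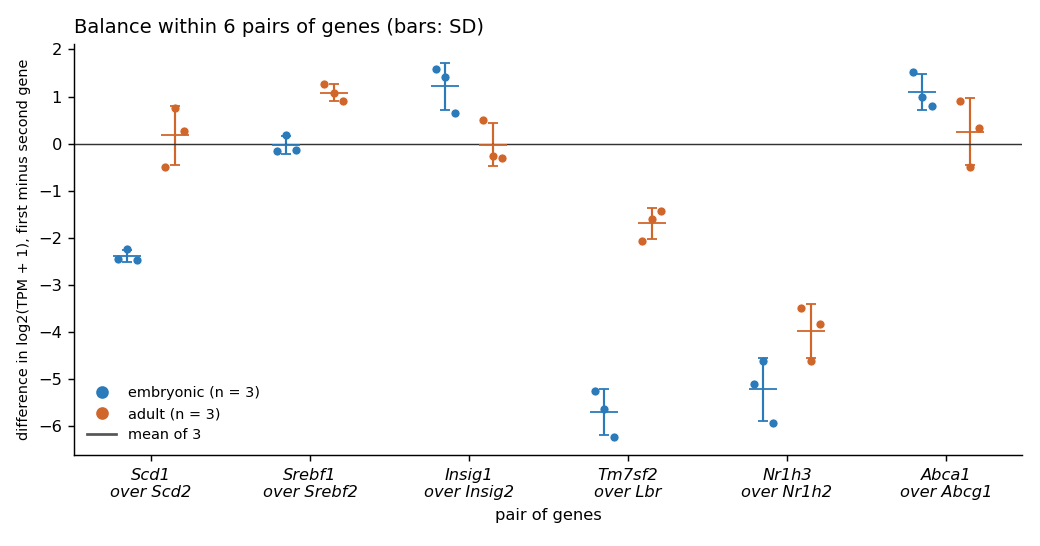
Difference in log2(TPM + 1) between the genes of 6 pairs in each sample, with a line at the mean and bars for the SD of 3 samples. Tm7sf2 over Lbr moves from about -5.7 to -1.7, and the stages overlap in Abca1 over Abcg1 alone.

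Sequence before the start sites was read for the 28 genes with a window in the RefSeq table of GRCm38.p6, 250 bases before to 50 bases after the start. SREBP binds sterol regulatory elements next to the CCAAT box bound by NF-Y and the GGGCGG box bound by Sp1, so these letters were searched on both strands as a description. CCAAT was present in a window of 15 of the 16 sterol enzymes read, all but Acat2, and in none of the 4 LXR genes read, against 41.1% of all 27025 genes of the table and 42.8% of the 10292 tested genes it covers. By direction of change, the letters were present in 7 of 9 genes that were lower, 3 of 7 that were higher and 11 of 12 that did not pass, which was not tested. GGGCGG was present in 15 of the 16 sterol enzymes and 1 of the 4 LXR genes, against 38.2% of all genes and 69.1% of tested genes. The sterol regulatory element searched as TCACNCCAC was present in Hmgcs1 alone of the 28, as TCACCCCAC, with its first base 137 bases before the start. That pattern occurs in 1.44% of all genes. A direct repeat of GGTCA with 4 bases between, the LXR element in its strict form, was in none of the 28 and in 0.0518% of all genes, and a missing match says only that these letters are not in this window.

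The stretches just before the start are given for 5 genes, to show a lower sterol enzyme with both elements, an enzyme that did not pass with the most CCAAT boxes, a lower fatty acid enzyme, and LXR genes that rose with none. Capitals mark CCAAT, which reads ATTGG where it lies on the other strand, and in Hmgcs1 also TCACCCCAC. In Fasn, matches on both strands overlap as CCAATTGG. The stretches are chr13:119690101-119690350 (plus strand) for Hmgcs1, chr5:114444089-114444268 (plus) for Mvk, chr11:120824548-120824697 (minus) for Fasn, chr7:44553966-44554115 (minus) for Nr1h2 and chr7:19699189-19699338 (minus) for Apoe, each written 5′ to 3′ and ending at the base before the start.
Hmgcs1: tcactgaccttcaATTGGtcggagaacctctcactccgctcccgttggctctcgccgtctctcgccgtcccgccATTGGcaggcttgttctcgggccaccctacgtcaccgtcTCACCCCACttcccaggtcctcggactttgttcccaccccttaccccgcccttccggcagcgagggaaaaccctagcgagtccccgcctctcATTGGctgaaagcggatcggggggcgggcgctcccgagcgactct
Mvk: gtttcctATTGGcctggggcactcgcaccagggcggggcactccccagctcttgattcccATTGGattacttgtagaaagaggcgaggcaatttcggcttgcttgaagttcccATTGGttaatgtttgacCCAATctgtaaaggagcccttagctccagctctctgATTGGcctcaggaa
Fasn: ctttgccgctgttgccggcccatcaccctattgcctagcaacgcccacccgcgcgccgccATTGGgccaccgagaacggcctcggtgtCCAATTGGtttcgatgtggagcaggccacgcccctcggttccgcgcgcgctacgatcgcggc
Nr1h2: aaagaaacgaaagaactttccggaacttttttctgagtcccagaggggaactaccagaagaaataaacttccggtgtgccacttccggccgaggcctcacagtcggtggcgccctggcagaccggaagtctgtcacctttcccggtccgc
Apoe: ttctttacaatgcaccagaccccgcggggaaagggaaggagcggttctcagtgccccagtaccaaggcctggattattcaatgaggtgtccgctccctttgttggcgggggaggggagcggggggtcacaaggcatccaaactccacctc

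Other genes of the same pathways, from wider lists, were set beside the members. Of 18 other genes of sterol synthesis and SREBP control that were tested, 4 were lower and 2 were higher in adult cells, with a median log2 fold change of -0.26. For lower genes this is close to the 21.4% of all genes tested, and for both directions together it is below the 45.3%. Stard4, a carrier of sterol between membranes, had 84.1, 81.7 and 103.2 TPM in embryonic and 17.8, 41.7 and 32.5 TPM in adult samples, with no overlap (log2 fold change -1.59, SE 0.29, limma adjusted p = 0.00238). The genes that rose serve side branches of the mevalonate path. Dhdds (1.40) acts in dolichol synthesis and Coq2 (1.30) in ubiquinone synthesis.

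Among 28 other genes of fatty acid and glycerolipid synthesis, 7 were lower and 6 were higher, with a median of 0.16, close to that of all genes. The 13 calls among these 28 were also close to the 45.3% of all genes tested. The lower ones included Fads2, the rate-limiting desaturase of polyunsaturated fatty acids, at 43.5, 39.1 and 79.9 TPM in embryonic and 3.18, 8.75 and 1.63 TPM in adult samples (log2 fold change -3.46, SE 0.49, limma adjusted p = 0.000668). Elovl6, which lengthens palmitate, fell by 1.84 and Acsl3, an acyl-CoA synthetase, by 1.93 on the log2 scale. Higher in adult cells were another synthetase, Acsl5 (log2 fold change 2.15), and the acyltransferases Agpat2 (1.81) and Gpam (1.37) of early glycerolipid synthesis. Of 23 other LXR targets and genes of cholesterol export and oxysterol metabolism, 8 were higher and 1 was lower, with a median of 0.36. Over all genes tested, 23.9% were higher and 21.4% lower, and for both directions together the list is below the 45.3%. Highest in change among the 23 were Soat2 (2.48), which esterifies cholesterol, the sterol hydroxylase Cyp27a1 (1.97) and the nuclear receptor Rora (1.82). The first 2 of these were low in embryonic samples. Soat2 read 0, 0.346 and 2.66 TPM there and 6.38, 9.88 and 9.72 TPM in adult samples. Cyp27a1 read 2.99, 1.24 and 3.035 TPM in embryonic and 18.8, 13.2 and 6.69 TPM in adult samples. The lower one was the lipoprotein receptor Scarb1 (-0.61). The split of this list moved to 5 higher and 3 lower under median-of-ratios scaling and to 6 and 2 under quantile normalization, and without embryonic replicate 3 it had 5 calls.

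**Figure D5:**
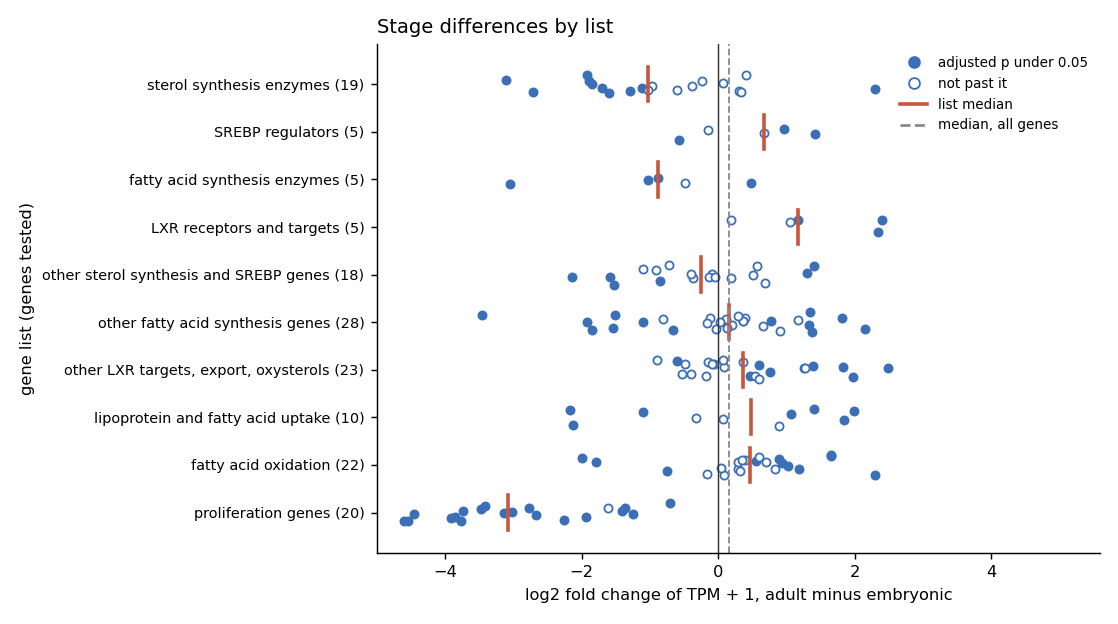
Log2 fold change of TPM + 1 (adult minus embryonic) of each tested gene by list, filled where adjusted p was under 0.05, with a bar at the list's median and a dashed line at the median of all genes, 0.16. The median of the sterol synthesis enzymes lies left of the dashed line at -1.04, that of the LXR genes right of it at 1.16, and that of the proliferation genes furthest left at -3.08.

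Other genes moved with stage beside the lipid genes, where 21.4% of all genes tested were lower and 23.9% higher in adult cells. Of 20 proliferation genes 19 were lower in adult cells, with a median log2 fold change of -3.08, and their summed level was 1353 to 1540 TPM in embryonic and 220 to 364 TPM in adult samples. Cdk1, the kinase that drives mitosis, read 197 to 241 TPM and then 2.53 to 25.5 TPM. Of 8 tendon and fibroblast markers 5 were lower and 0 were higher, and they summed to 5282 to 5848 TPM in embryonic and 433.5 to 706 TPM in adult samples, mostly Col3a1. In both lists, as in the summed sterol enzymes, every embryonic sample stood above every adult one, and the part of these lists in the lower sterol and fatty acid enzymes was not tested.

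Cells rich in lipid genes were looked for through their markers. The adipocyte genes Adipoq, Lep and Cfd were listed at 0 in all 6 samples and Plin1 at no more than 0.0935 TPM, and the 10 markers summed to 66.0 to 85.4 TPM in embryonic and 32.9 to 55.2 TPM in adult samples. Fabp4, also an adipocyte marker, read 47.35, 29.59 and 21.65 TPM in embryonic and 40.12, 23.13 and 13.85 TPM in adult samples, and did not pass. It was the highest of the 10 in each adult sample. Of the 4 adipocyte markers tested, 2 were higher and 1 was lower in adult cells. The lipid droplet gene Plin4 was at 0.035 to 0.197 TPM and then 2.44 to 4.08 TPM, and the lipase Lipe at 0.821 to 2.59 TPM and then 7.401 to 8.57 TPM. Pparg, the adipocyte receptor that other cells also express, was at 30.3 to 54.8 TPM and then 1.53 to 4.07 TPM. For Apoe and the LXRs, which macrophages express strongly, Csf1r was at most 1.54 TPM, Adgre1 at most 0.162 TPM, Ptprc at most 2.29 TPM and C1qa at 0 in every sample. The 11 macrophage and leukocyte markers nonetheless summed to 16.1 to 23.0 TPM in embryonic and 413 to 478 TPM in adult samples, of which Cd14 held 357 to 458 TPM in adult samples. Of the 6 tested, 3 were higher and 1 was lower, and Cd68, a lysosomal protein of macrophages, was among the higher at 4.22 to 12.6 TPM and then 17.2 to 33.3 TPM. Among adult samples, Lyz2 (30.7, 0.706 and 8.14 TPM) and Itgam (18.2, 1.38 and 12.1 TPM) were lowest in replicate 2. Of the LXR genes, Nr1h3, Apoe and Abca1 were also lowest in that sample, at 7.37, 416 and 7.58 TPM. Nr1h2 and Abcg1 were instead highest in it, at 202.5 and 11.2 TPM. In adult replicate 2, Nr1h3 and Apoe stood above every embryonic value. Without that sample their log2 fold changes were 2.58 for Nr1h3 and 2.44 for Apoe. The part of macrophage or adipocyte RNA in these results was not tested.

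Other marker lists were mixed, and beside them 21.4% of all genes tested were lower and 23.9% higher. Endothelial markers summed to 7.83 to 48.0 TPM over the 6 samples, with 1 of 5 tested lower, and muscle markers to 1.35 to 29.4 TPM, with 1 of 5 lower. Of the erythroid markers 4 were tested and 0 passed by limma, also at an unadjusted p of 0.05. Of 8 osteoblast markers 4 were higher in adult cells (Bglap, Bglap2, Ibsp and Spp1) and 2 were lower, and their median log2 fold change was 0.96. Their sum nonetheless went from 5628 to 6558 TPM down to 2898 to 5461 TPM, since Col1a1 alone fell from 4862 to 5971 TPM to 170.4 to 637 TPM. Hypertrophic chondrocyte markers summed to 103.6 to 175 TPM and then 1071 to 1415 TPM, led by Col10a1 and Mmp13, and of 6 tested 3 were higher and 1 was lower. Skin markers summed to 6.05 to 12.0 TPM and then 468 to 855 TPM, of which Sbsn alone held 465.9 to 849.7 TPM in adult samples, while the keratins Krt5 and Krt14 were listed at 0 in all 6 samples. Of 3 skin markers tested, 1 was higher and 0 were lower in adult cells. Without embryonic replicate 1, apart in sex-linked and erythroid genes, 6 of the 34 genes were higher and 12 lower. Without adult replicate 3, the highest adult sample in Tm7sf2, Lbr and Fdft1, 8 were higher and 15 lower.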

How the data were processed

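RNA-seq was done on 3 embryonic and 3 adult samples of sorted mouse knee chondrocytes. The labels name a Kapa mRNA-Seq kit, and the methods name Nugen Ovation V2 cDNA with a Kapa LTP library, read as single ends of 50 bases. The authors mapped reads to GRCm38, estimated TPM with RSEM (version and counting strand not given in the sources used here) and deposited log2(TPM + 1) values for 22032 Ensembl genes. The methods name a RefSeq annotation. TPM sums to 1000000 per sample and keeps no depth, so precision rests on the spread between samples. Depth is not analysed here.

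The stages were compared in R 4.3.3 by limma 3.58.1 (a linear fit with stage as its only term, then eBayes with trend) on the deposited log2 values, which carry a pseudocount of 1. The 13125 genes tested averaged 1 TPM or more, with Benjamini-Hochberg adjustment over them all. EBSeq, the study's test, needs counts and was not used. The fit was checked on simulated data. The groups came from the sample titles. Symbols and loci come from GENCODE M21, with 21902 identifiers matched, and promoter windows from RefSeq. The 6 member genes Abcg1, Scd1, Fdft1, Scd2, Fdps and Sqle have no window in the table used here.

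The members and lists were chosen with earlier results of these data known. All 34 members are named. From each other lipid list, the 3 genes with the largest change in each direction are named, among those past the threshold with stage ranges that do not overlap, except for items that are not reported here. From marker lists, counts and sums are given, with single markers named after their values were seen. Pair ratios were compared by exact permutation tests. The alternatives changed the pseudocount (0.1), the filter (none, or 5 TPM), the scaling (quantile, median-of-ratios, or with the 20 highest genes removed), the eBayes options (no trend, or robust) and the threshold (0.01), added a block for the replicate number, or left out each sample in turn. Python 3.11.15 was used with numpy 2.4.6, pandas 2.3.3 and matplotlib 3.10.9.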

Additional observations from a re-analysis of the deposited data

How the results depend on the processing

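Of the 20 genes called among the 34, 17 kept their direction and call under all 16 alternatives, and Fdft1, Acaca and Acly lost the call under at least 1. Of the 14 that were not called, 7 passed under at least 1 alternative and 4 changed sign: Nsdhl under quantile normalization (-0.12), median-of-ratios scaling (-0.066) and with 1 sample left out (-0.30 to 0.40), Ebp (-0.14 to 0.99) and Dhcr7 (-0.44 to 0.12) with 1 sample left out, and Abca1 under quantile normalization (-0.013). At an adjusted p of 0.01, calls fell to 3718 over all genes, 2 fatty acid synthesis enzymes, 3 other LXR genes and 6 fatty acid oxidation genes, by construction of a stricter threshold. The adult minus embryonic difference in the median sterol enzyme was -0.49 and became -0.63 under median-of-ratios scaling, which moved the median of all genes from 0.16 to 0.03. That scaling divided the embryonic samples by 0.941 to 0.987 and the adult samples by 1.06 to 1.09, which lowers such differences across genes. Why the factors differ by stage was not tested.

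With 1 sample left out, calls ranged from 4603 to 5550 over all genes and from 18 to 23 over the 34. Sterol synthesis enzymes had 9 to 13 calls, SREBP regulators 3 to 4, fatty acid synthesis enzymes 2 to 4 and LXR genes 3 to 4. The wider lists had 5 to 7 (sterol), 11 to 13 (fatty acid synthesis), 5 to 8 (LXR and export), 6 to 7 (uptake), 8 to 11 (oxidation) and 17 to 20 (proliferation). Pair ratios kept their sign.

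Labels number the samples of both stages 1 to 3. Same-numbered samples showed no common deviation over all genes (correlations -0.0088, -0.0169 and -0.0223). With so few samples, these values cannot tell whether the numbers stand for a shared batch or handling. With the replicate number as a block, 5430 genes and 20 of the 34 were called, Insig2 being gained (adjusted p = 0.0411) and Acly lost (adjusted p = 0.0564) by limma.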

Other observations

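Genes that bring lipid into cells changed in both directions. Of 10 tested genes of lipoprotein and fatty acid uptake, 4 were higher and 3 were lower in adult cells (limma with Benjamini-Hochberg adjustment), the middle log2 fold change being 0.49, where 23.9% of all genes were higher and 21.4% lower. Lrp1, an endocytic receptor that binds Apoe among other ligands, read 272, 186.9 and 226 TPM in embryonic and 897, 892 and 911 TPM in adult samples (log2 fold change 1.99, SE 0.15, limma adjusted p = 1.9e-05). Lrpap1, the chaperone of that receptor family, went the other way, from 120.1, 122.2 and 115.5 TPM to 62.1, 51.7 and 51.0 TPM (-1.11). The fatty acid transporters split as well. Slc27a4 (1.84) and Cd36 (1.40) were higher in adult cells, although Cd36 reached only 3.19 to 5.48 TPM. Slc27a3 (-2.17) and the fatty acid binding protein Fabp5 (-2.13) were lower. Fabp5 fell from 102.8, 114.7 and 88.0 TPM to 23.7, 18.5 and 25.7 TPM.

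Of 22 tested genes of fatty acid oxidation and ketone use, 8 were higher and 3 were lower, and the middle log2 fold change was 0.47. Over all genes tested, 23.9% were higher and 21.4% lower, 45.3% together, and calls of this list in both directions were close to that. Cpt1a, the gate of fatty acids into mitochondria, rose from 9.32, 12.3 and 4.77 TPM to 40.4, 43.2 and 50.3 TPM (log2 fold change 2.30, SE 0.33, limma adjusted p = 0.000685). Cpt1b (1.65), its muscle form, was below 3 TPM in all samples, and Eci1 (1.65), an enoyl-CoA isomerase, rose from 5.91 to 19.2 TPM to 27.6 to 36.9 TPM. The lower genes were Oxct1 (-1.79) and Bdh1 (-1.99), which use ketone bodies, and the isomerase Eci2 (-0.76). Oxct1 fell from 208, 170.3 and 187 TPM to 65.5, 59.3 and 39.3 TPM.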
